A study of Mus musculus with 9 samples.

Results

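The MHC (major histocompatibility complex) class II pathway was followed in mouse left ventricle through 7 genes, chosen by symbol: the transactivator Ciita, the invariant chain Cd74, the classical chains H2-Aa, H2-Ab1 and H2-Eb1, and the peptide editor chains H2-DMa and H2-DMb1. They are 7 of the 22036 annotated genes in the count table, and 7 of 7 passed the filter on low counts that left 14160 genes for testing. The left ventricles were 9 samples from mice labelled wild type, in 3 groups of 3 biological replicates, profiled by bulk mRNA sequencing. The group HFD AAV-BCKDK combined the diet HFD, taken to mean high-fat, with a vector carrying the name of BCKDK, the kinase that switches off branched-chain ketoacid dehydrogenase. The group HFD AAV-CON had that diet with a control vector, and the group ND AAV-CON had the control vector with the diet ND, taken to mean normal. All 9 samples thus carried an adeno-associated virus (AAV) vector, and no group was without one. The sources used here give neither age, sex, diet length and vector dose nor the promoter that drives BCKDK. HFD AAV-CON served in both the diet comparison (against ND AAV-CON) and the vector comparison (HFD AAV-BCKDK against it), so these comparisons share 3 libraries and are not independent.

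Each library held between 32803233 and 45483044 counts in annotated genes. Levels are given in CPM, the count of a gene relative to the library's total, after scaling by trimmed mean of M values (TMM) factors, and changes as log2 fold changes with their standard error (SE). The p-values set a difference between groups against the spread between these samples. Bckdk itself had 111, 126 and 120 CPM in HFD AAV-BCKDK libraries, against 37.1, 65.0 and 49.4 CPM in HFD AAV-CON libraries and 78.6, 70.3 and 70.6 CPM in ND AAV-CON libraries, and every HFD AAV-BCKDK library lay above every other. The summed level of 6 cardiomyocyte genes, among them Myh6 and Tnnt2, was 22946 to 25069 CPM in HFD AAV-BCKDK, 13438 to 21922 CPM in HFD AAV-CON, against 26373 to 27309 CPM in ND AAV-CON, as the heart label implies. Replicates of HFD AAV-CON stood apart from one another. Replicate 3 of this group lay between the other 2 in 64.1% of the genes tested, against 14.8% to 37.5% for every other library within its group, and its unnamed loci held 1.02% of all counts, against up to 6.01% in other libraries. Mitochondrial genes held 26.1%, 39.9% and 33.2% of the annotated counts of the HFD AAV-CON replicates 1, 2 and 3, and between 42.1% and 47.6% in the HFD AAV-BCKDK and ND AAV-CON libraries. Whether replicate 3 is a sample independent of the other 2 cannot be told from the counts; if it is not, p-values that use HFD AAV-CON are too small. Results are therefore also given without it.

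MHC class II molecules present peptides from endosomes to CD4 T cells. Dendritic cells, B cells and activated macrophages carry them constitutively or on demand, and interferon gamma induces them in many other cells through Ciita. Ciita does not bind DNA itself but docks on factors that sit on conserved X and Y boxes in front of each class II gene. The invariant chain fills the groove of a new class II molecule, proteases such as cathepsin S trim it, and H2-DM removes the last fragment so that peptide can bind.

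Promoter sequences were compared because the genes moved together. RefSeq windows of build GRCm38.p6, running from 250 bases before to 50 bases after a start, were held for 4 of the 7 genes (H2-Aa, H2-Eb1, H2-DMa and H2-DMb1). The lines below show the stretch around the paired boxes in H2-Eb1, H2-DMb1 and H2-Aa, and in the related genes H2-DMb2 and H2-Eb2, each written 5′ to 3′ on its gene's own strand. Capitals mark an X-type match (AACNGATG) or, in H2-Aa, a cyclic AMP response element match (TGACGTCA), followed by a Y-type match (TGATTGG). The H2-Eb1 stretch is chr17:34305770-34305820, plus strand, and the H2-DMb1 stretch is chr17:34153091-34153142, plus strand. The H2-DMb2 stretch is chr17:34145120-34145171, plus strand, the H2-Aa stretch is chr17:34287859-34287905, minus strand, and the H2-Eb2 stretch is chr17:34325537-34325587, plus strand.
H2-Eb1: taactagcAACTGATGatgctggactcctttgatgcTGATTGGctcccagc
H2-DMb1: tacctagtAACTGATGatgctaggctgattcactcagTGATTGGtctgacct
H2-DMb2: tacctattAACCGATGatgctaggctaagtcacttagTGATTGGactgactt
H2-Aa: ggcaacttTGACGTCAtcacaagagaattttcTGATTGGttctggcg
H2-Eb2: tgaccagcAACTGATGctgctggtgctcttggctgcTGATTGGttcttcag

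The gap between the 2 boxes was 20 bases in H2-Eb1 and H2-Eb2, 21 bases in H2-DMb1 and H2-DMb2, and 16 bases in H2-Aa. The letters searched were chosen after these sequences had been read. On either strand, the X-type letters occurred in 2.32% of all 32851 RefSeq windows, the cyclic AMP element in 1.79% and the Y-type letters in 7.82%. The pair in this order and orientation, with 5 to 40 bases between, occurred in 13 windows, 0.0396% of all. Of the 13, 5 belong to the genes printed above, which were printed because they carry the pair. Whether the pair bears on the changes in level was not tested. Of the 8 class II genes with a window, 5 carry the pair. H2-Oa and H2-Ob held only a Y-type match. Neither of the 2 windows of H2-DMa held any of the 3 strings, which says only that these letters are not in those windows.

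In annotation GENCODE M21 on build GRCm38, H2-DMa (chr17:34119541-34139101), H2-DMb1 (chr17:34153072-34160230), H2-Ab1 (chr17:34257689-34269419), H2-Aa (chr17:34282744-34287823, minus strand) and H2-Eb1 (chr17:34305867-34316674) lie in the class II region of chromosome 17. Ciita lies at chr16:10480059-10528418 and Cd74 at chr18:60803848-60812652.

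All 7 genes were higher in HFD AAV-CON left ventricles than in both other groups, 7.52-fold to 20.4-fold against HFD AAV-BCKDK and 4.95-fold to 8.34-fold against ND AAV-CON, and their levels in HFD AAV-BCKDK and ND AAV-CON overlapped. Together they held 0.0248%, 0.0641% and 0.0633% of annotated counts in HFD AAV-BCKDK libraries, against 1.02%, 0.399% and 0.709% in HFD AAV-CON libraries and 0.0629%, 0.0331% and 0.146% in ND AAV-CON libraries. In bulk tissue, fewer cells that carry class II and less class II RNA per cell cannot be told apart.

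Ciita, the transactivator on which class II transcription depends, had 0.922, 1.38 and 1.64 CPM in HFD AAV-BCKDK libraries. It had 35.1, 17.9 and 28.5 CPM in HFD AAV-CON libraries and 3.03, 1.05 and 5.66 CPM in ND AAV-CON libraries. Every HFD AAV-CON library was above all others, and the HFD AAV-BCKDK and ND AAV-CON libraries overlapped. These levels rest on 27, 39 and 69 counts in HFD AAV-BCKDK, 2190, 664 and 1196 counts in HFD AAV-CON and 111, 39 and 224 counts in ND AAV-CON. In edgeR's quasi-likelihood test, Ciita fell by 4.35 on the log2 scale in HFD AAV-BCKDK against HFD AAV-CON (SE 0.54, Benjamini-Hochberg adjusted p = 0.0013), a 20.4-fold lower level. It rose by 3.06 in HFD AAV-CON against ND AAV-CON (SE 0.49, edgeR adjusted p = 0.0017), a fold of 8.34.

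Cd74, the invariant chain that guards the class II groove, was the most abundant of the 7 per length of exon. It had 127, 316 and 292 CPM in HFD AAV-BCKDK libraries, 3225, 1748 and 2701 CPM in HFD AAV-CON libraries and 290, 159 and 637 CPM in ND AAV-CON libraries. The lowest HFD AAV-CON library held 5.53 times the highest HFD AAV-BCKDK library and 2.74 times the highest ND AAV-CON library. Cd74 fell by 3.38 in HFD AAV-BCKDK against HFD AAV-CON (SE 0.54, edgeR adjusted p = 0.0025) and rose by 2.82 in HFD AAV-CON against ND AAV-CON (SE 0.53, edgeR adjusted p = 0.0032).

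The classical chains bind the peptide: H2-Aa and H2-Ab1 encode the alpha and beta chains of I-A, and H2-Eb1 the beta chain of I-E. H2-Aa had 57.0, 157 and 138 CPM in HFD AAV-BCKDK libraries, against 1389, 726.5 and 1091 CPM in HFD AAV-CON libraries and 146, 77.8 and 323 CPM in ND AAV-CON libraries. H2-Ab1 had 34.3, 112 and 100.2 CPM in HFD AAV-BCKDK libraries, against 994, 577 and 787 CPM in HFD AAV-CON libraries and 104, 49.97 and 222 CPM in ND AAV-CON libraries. H2-Eb1 had 55.5, 138 and 133 CPM in HFD AAV-BCKDK libraries, against 1372, 736 and 1066 CPM in HFD AAV-CON libraries and 133, 63.3 and 305 CPM in ND AAV-CON libraries. For each of the 3 chains, HFD AAV-CON lay above every library of the other groups, and HFD AAV-BCKDK and ND AAV-CON overlapped. In HFD AAV-BCKDK against HFD AAV-CON, H2-Aa fell by 3.19 (SE 0.55), H2-Ab1 by 3.26 (SE 0.59) and H2-Eb1 by 3.28 (SE 0.57), at edgeR adjusted p of 0.0035, 0.0040 and 0.0035. In HFD AAV-CON against ND AAV-CON, H2-Aa rose by 2.55 (SE 0.54), H2-Ab1 by 2.65 (SE 0.57) and H2-Eb1 by 2.66 (SE 0.56), at edgeR adjusted p of 0.0056, 0.0060 and 0.0054.

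H2-DMa and H2-DMb1 encode the alpha and beta chains of H2-DM, which edits the peptide in endosomes. H2-DMa had 3.21, 11.2 and 10.7 CPM in HFD AAV-BCKDK libraries, against 81.8, 46.3 and 61.2 CPM in HFD AAV-CON libraries and 9.24, 5.70 and 23.3 CPM in ND AAV-CON libraries. H2-DMb1 had 2.53, 8.20 and 8.26 CPM in HFD AAV-BCKDK libraries, against 73.5, 40.7 and 58.2 CPM in HFD AAV-CON libraries and 8.39, 4.51 and 16.5 CPM in ND AAV-CON libraries. Both chains were again highest in the 3 HFD AAV-CON libraries. H2-DMa fell by 2.91 (SE 0.57, edgeR adjusted p = 0.0056) and H2-DMb1 by 3.17 (SE 0.53, edgeR adjusted p = 0.0029) in HFD AAV-BCKDK against HFD AAV-CON. In HFD AAV-CON against ND AAV-CON, H2-DMa rose by 2.31 (SE 0.55, edgeR adjusted p = 0.0093) and H2-DMb1 by 2.55 (SE 0.51, edgeR adjusted p = 0.0044). H2-DMb1 has a close copy next to it, H2-DMb2, and the sources used here do not say how the authors counted reads shared by such copies, so the split between them is uncertain.

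**Figure D1:**
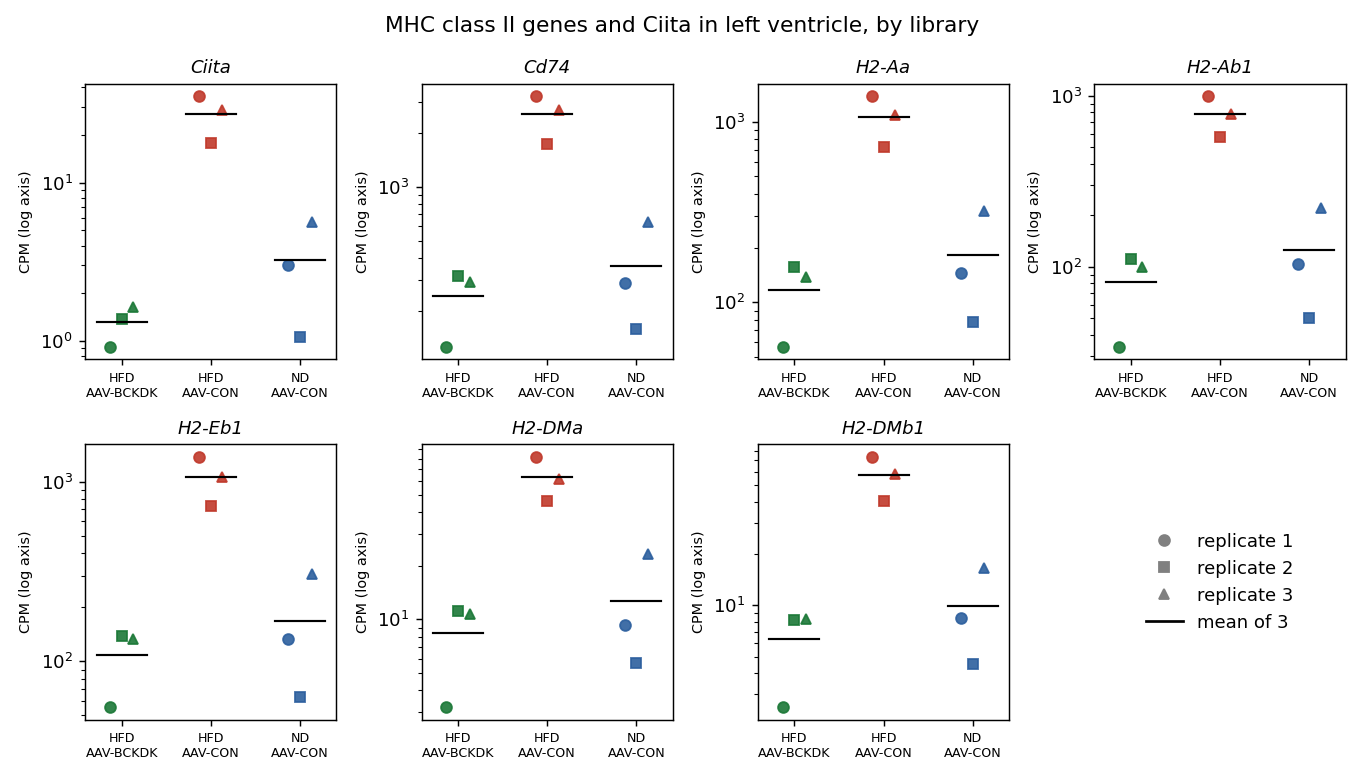
CPM of each of the 7 genes on a log axis, 1 panel per gene, for HFD AAV-BCKDK, HFD AAV-CON and ND AAV-CON from left to right; points are libraries, with the symbol giving the replicate, and the line is the mean of 3. In 7 of 7 panels the HFD AAV-CON libraries sit above all others, for Ciita at 17.9 CPM or more against 5.66 CPM or less.

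All 7 genes thus fell in the vector comparison, where 20.9% of the genes tested were called lower, and all 7 rose in the diet comparison, where 22.7% were called higher. Their groups did not overlap in either comparison, as was so for 27.3% of all genes on the lower side of the vector comparison and 28.2% on the higher side of the diet comparison. Their median change was -3.26 in the vector comparison and 2.65 in the diet comparison, against -0.010 and -0.0018 over all genes tested.

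Against ND AAV-CON, HFD AAV-BCKDK left ventricles showed 0 of 7 genes called by edgeR, in a comparison where 2.45% of genes were called in either direction. DESeq2 and limma-voom also called 0 of 7. The estimate for Ciita was -1.29 (SE 0.54, edgeR adjusted p = 0.258), and it was the 1 gene of the 7 with an unadjusted p under 0.05. The other 6 estimates lay between -0.64 and -0.56, with edgeR adjusted p of 0.59 to 0.65. All 7 were lower on average in HFD AAV-BCKDK but overlapped, and the signs of Cd74, H2-Aa, H2-Ab1, H2-Eb1 and H2-DMa turned when ND AAV-CON replicate 3 was left out, with values of 0.069 to 0.17. A miss of the threshold does not show equal levels.

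**Figure D2:**
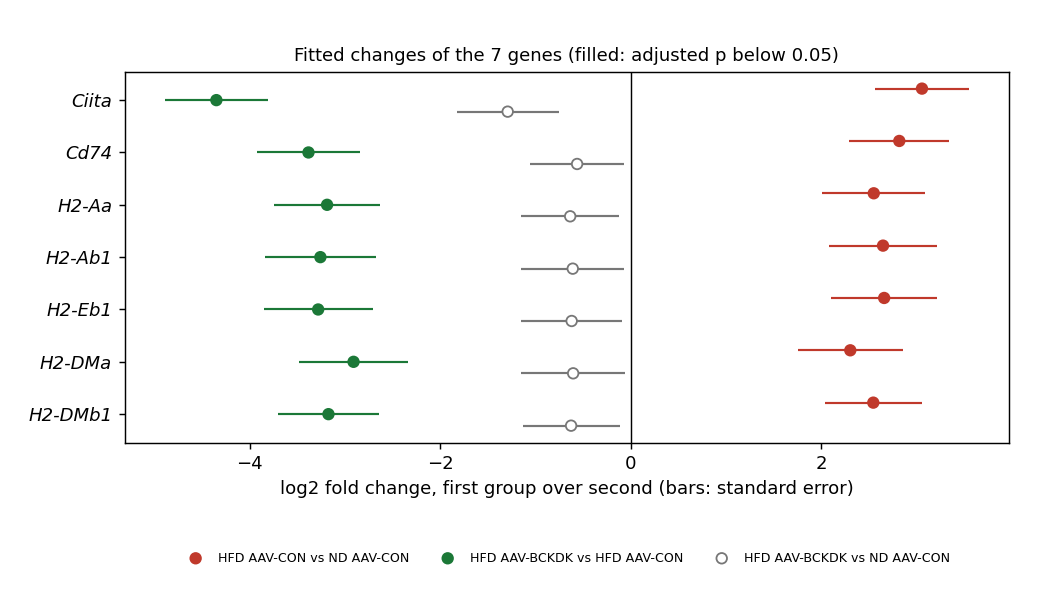
Fitted log2 fold change of each gene (x axis, first group over second, bars are the SE) in the diet comparison, the vector comparison and HFD AAV-BCKDK against ND AAV-CON; filled points have an edgeR adjusted p below 0.05. The vector estimates run from -4.35 for Ciita to -2.91 for H2-DMa, the diet estimates from 2.31 for H2-DMa to 3.06 for Ciita, and no point of the remaining comparison is filled.

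Without HFD AAV-CON replicate 3, 7 of 7 genes were still called in the vector and diet comparisons. Ciita was then at -4.30 in the vector comparison (edgeR adjusted p = 0.0079) and 3.03 in the diet comparison (edgeR adjusted p = 0.0080). H2-DMa, the gene with the smallest changes, was at -2.91 (edgeR adjusted p = 0.019) and 2.33 (edgeR adjusted p = 0.027).

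Per kilobase of exon, with CPM divided by exon length (RPKM), Cd74 stood first, with means of 146, 1524 and 216 RPKM in HFD AAV-BCKDK, HFD AAV-CON and ND AAV-CON. H2-Eb1 followed, with means of 55.9, 544 and 85.9 RPKM in the same order of groups. H2-Ab1 (32.0, 306 and 48.7 RPKM) and H2-Aa (30.9, 281 and 47.9 RPKM) were close to each other. H2-DMb1 and H2-DMa were about 1 order of magnitude below the classical chains, with 34.2 and 18.3 RPKM in HFD AAV-CON. Ciita was lowest at 0.138, 2.85 and 0.341 RPKM. This order held in 9 of 9 libraries except for H2-Aa and H2-Ab1, which exchanged places in HFD AAV-BCKDK replicate 1 and ND AAV-CON replicate 2. H2-Aa and H2-Ab1 thus differed by less than the spread between libraries: the highest library held 1.78 to 3.48 times the lowest in HFD AAV-BCKDK, 1.72 to 1.96 times in HFD AAV-CON and 3.66 to 5.37 times in ND AAV-CON, over the 7 genes.

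All 7 genes ranked the libraries alike, except that replicates 2 and 3 of HFD AAV-BCKDK changed places between genes. In HFD AAV-BCKDK, replicate 1 was lowest for 7 of 7. Replicate 1 was highest and replicate 2 lowest among HFD AAV-CON libraries for 7 of 7, and replicate 3 was highest and replicate 2 lowest among ND AAV-CON libraries for 7 of 7. The summed levels of the monocyte, dendritic cell, B cell, T cell and CD8 T and NK cell markers, and Ptprc, followed the same order in HFD AAV-CON and ND AAV-CON. The macrophage sum did so in HFD AAV-CON but was lowest in replicate 1 of ND AAV-CON, and the resident macrophage sum was highest in replicate 2 of HFD AAV-CON. The share of mitochondrial counts ran the other way in HFD AAV-CON, at 26.1% in replicate 1 and 39.9% in replicate 2. The part of these in the spread was not tested.

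Proportions among the 7 genes were compared as log2 ratios of counts to H2-Ab1 in the same library, which need no scaling between libraries. With 3 libraries against 3, the exact two-sided permutation test cannot go below p = 0.1. Per H2-Ab1 read, HFD AAV-BCKDK libraries held 0.0269, 0.0123 and 0.0163 Ciita reads, against 0.0353, 0.0310 and 0.0362 in HFD AAV-CON libraries and 0.0293, 0.0211 and 0.0255 in ND AAV-CON libraries. HFD AAV-CON lay above both other groups with no overlap. The log2 ratio was lower by 0.96 in HFD AAV-BCKDK than in HFD AAV-CON (a difference of -0.96, exact permutation p = 0.1) and higher by 0.44 in HFD AAV-CON than in ND AAV-CON (exact permutation p = 0.1). H2-DMa went the other way, with differences of 0.32 in the vector comparison and -0.35 in the diet comparison (exact permutation p = 0.1 for each, no overlap). Cd74, H2-Aa, H2-Eb1 and H2-DMb1 differed by at most 0.17 log2 units per H2-Ab1 read in both comparisons, and of these only H2-Aa and H2-DMb1 had groups without overlap, in the diet comparison, at -0.13 and -0.17 (exact permutation p = 0.1 for each). Per Cd74 read, Ciita was lower by 0.91 in the vector comparison (a difference of -0.91, exact permutation p = 0.1, no overlap), but its groups overlapped in the diet comparison at 0.31 (exact permutation p = 0.2). H2-DMa per Cd74 read overlapped in the vector comparison at 0.37 (exact permutation p = 0.3) and was at -0.49 in the diet comparison without overlap (exact permutation p = 0.1). H2-Aa per Cd74 read did not overlap in either comparison, at 0.18 in the vector comparison and -0.26 in the diet comparison (exact permutation p = 0.1 for each). H2-DMb1 per Cd74 read was at -0.30 in the diet comparison and H2-Eb1 at 0.098 in the vector comparison, each without overlap (exact permutation p = 0.1 for each), and both overlapped in the remaining comparison.

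Macrophages are a main class II carrier of the heart, and the 6 class II genes other than Ciita were therefore set against 10 macrophage markers, such as Adgre1, Csf1r, C1qa and Lyz2. Lyz2 was the largest part of the marker sum, with means of 342, 1377 and 437 CPM in HFD AAV-BCKDK, HFD AAV-CON and ND AAV-CON. The ratio of summed CPM was 0.542, 1.12 and 0.995 in HFD AAV-BCKDK libraries, against 2.30, 2.05 and 2.29 in HFD AAV-CON libraries and 1.02, 0.520 and 1.63 in ND AAV-CON libraries. Those of HFD AAV-CON were above all others and close to one another, with a mean log2 ratio of 1.14 ± 0.09 (SD, n = 3), while those of HFD AAV-BCKDK and ND AAV-CON were -0.24 ± 0.56 and -0.07 ± 0.83 (SD, n = 3 each). The difference was -1.39 in the vector comparison and 1.22 in the diet comparison (exact permutation p = 0.1 for each, the smallest possible), and -0.17 between HFD AAV-BCKDK and ND AAV-CON (exact permutation p = 0.9).

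Set against Ptprc, which encodes the CD45 antigen carried by all white blood cells, the same 6 genes gave another picture. The ratio was 35.6, 58.0 and 45.0 in HFD AAV-BCKDK libraries, 46.6, 63.3 and 52.7 in HFD AAV-CON libraries and 48.3, 42.7 and 49.1 in ND AAV-CON libraries. All 3 groups overlapped, with differences of -0.25 in the vector comparison (exact permutation p = 0.4) and 0.21 in the diet comparison (exact permutation p = 0.3). Against 8 dendritic cell markers, a denominator added after the data had been seen, the differences were -2.21 and 1.56 (exact permutation p = 0.1 for each). Zbtb46, which encodes a transcription factor, averaged 19.4, 16.003 and 17.5 CPM in HFD AAV-BCKDK, HFD AAV-CON and ND AAV-CON and made up much of that denominator outside HFD AAV-CON. Without Zbtb46, likewise tried after the data had been seen, the differences were -1.07 in the vector comparison (exact permutation p = 0.1, no overlap) and 0.31 in the diet comparison (exact permutation p = 0.2, overlapping). The ratio without Zbtb46 was also lower in every HFD AAV-BCKDK library than in every ND AAV-CON library, with a difference of -0.76 (exact permutation p = 0.1), while with the macrophage, Ptprc and full dendritic cell denominators these groups overlapped. With the monocyte and resident macrophage lists added to the macrophage markers, the differences were -1.58 and 1.35 in the vector and diet comparisons. As means of log2 CPM, class II genes less macrophage markers, they were -1.33 and 0.97. The groups did not overlap in any of these (exact permutation p = 0.1 for each). The class II level per marker thus kept its direction in both comparisons. Its size and the separation of the groups depended on which white cell marker stood below the line.

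**Figure D3:**
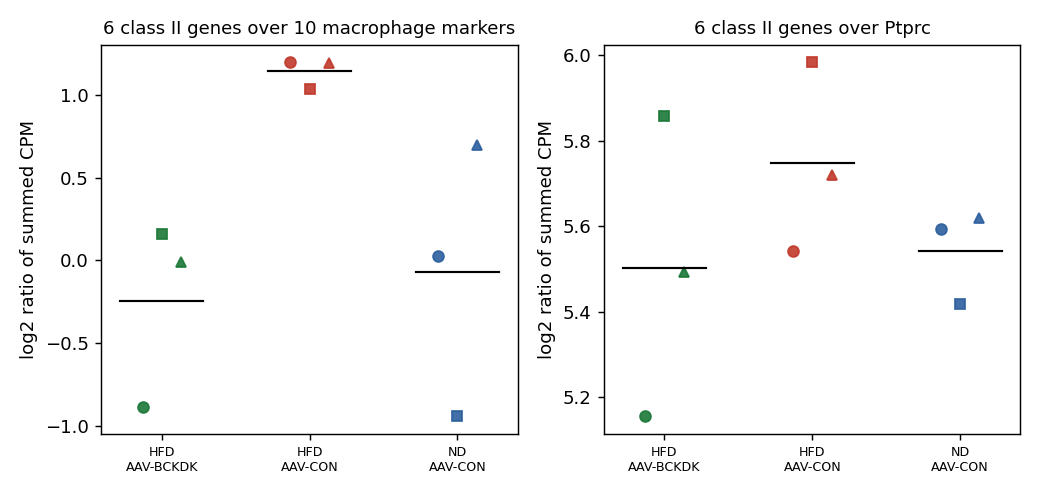
Log2 ratio of the summed CPM of the 6 class II genes to that of 10 macrophage markers (left) and to Ptprc (right), by group, with 1 point per library and the mean as a line. On the left the HFD AAV-CON mean is 1.14 and its libraries lie apart from the others; on the right the 3 groups overlap, and the y axes differ in range.

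Most lists of white cell markers moved in the same directions as the class II genes. For these and later lists, the shares over all genes tested were 20.9% called lower (vector comparison) and 22.7% called higher (diet comparison). Macrophage markers fell for 10 of 10 in the vector comparison (median -2.02) and rose for 10 of 10 in the diet comparison (median 1.76). Their summed level was 516 to 685 CPM in HFD AAV-BCKDK, 1887 to 3108 CPM in HFD AAV-CON, against 679 to 939 CPM in ND AAV-CON, and no macrophage or dendritic cell marker was at 0 in any library. Of 8 dendritic cell markers, 5 fell in the vector comparison and 6 rose in the diet comparison, with sums of 27.5 to 34.1, 59.3 to 75.5 and 23.6 to 29.6 CPM in HFD AAV-BCKDK, HFD AAV-CON and ND AAV-CON. Of 5 monocyte markers, 4 fell in the vector comparison and 4 rose in the diet comparison, with sums of 12.5 to 23.8, 54.5 to 124 and 10.2 to 37.7 CPM, and Chil3 was at 0 in ND AAV-CON replicates 1 and 2. Their part in the class II result was not tested.

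B cells, the other constitutive carriers, gave few reads. Of 5 markers 3 fell in the vector comparison. In the diet comparison edgeR called 0 of 5, with 2 at an unadjusted p under 0.05, DESeq2 called 1 and limma-voom 2. Sums were 0.389 to 1.31 CPM in HFD AAV-BCKDK, 5.25 to 11.6 CPM in HFD AAV-CON, against 1.03 to 6.79 CPM in ND AAV-CON. Pax5 was at 0 in HFD AAV-BCKDK replicates 1, 2 and 3 and in ND AAV-CON replicate 2. A list of 9 markers chosen for CD4 T cells, which read class II, had 9 of 9 lower in the vector comparison and 8 of 9 higher in the diet comparison, but most of its genes are shared with CD8 T cells. Cd4 itself averaged 1.64 CPM in HFD AAV-BCKDK, 9.07 CPM in HFD AAV-CON, against 1.75 CPM in ND AAV-CON, and Cd8a, the CD8 chain, averaged 1.75, 43.9 and 4.11 CPM in the same order of groups. The 9 markers had sums of 7.41 to 16.3, 87.6 to 153 and 8.07 to 34.8 CPM, and Cd40lg at 0 in HFD AAV-BCKDK replicate 1 and ND AAV-CON replicate 1. CD8 T and NK markers fell for 4 of 5 and rose for 3 of 5. The resident macrophage list, with Timd4, Lyve1 and Folr2 among its 6 genes, had sums of 116 to 140.3, 107 to 151 and 122 to 132 CPM, with 2 higher and 1 lower in the vector comparison and 1 higher and 2 lower in the diet comparison, and medians of 0.51 and -0.60.

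Of 6 fibroblast markers, 5 fell in the vector comparison and 4 rose in the diet comparison, with medians of -1.22 and 1.19. The 5 became 3 in 6 of 20 alternatives, among them those without HFD AAV-BCKDK replicate 1 or 2, HFD AAV-CON replicate 1 or 3 or ND AAV-CON replicate 3. The 8 endothelial markers had medians of 0.63 and -0.43, with 8 called higher in the vector comparison (17.3% of all genes tested were) and 6 called lower in the diet comparison (20.6% of all genes tested were) under TMM, but 1 and 3 called under total-count scaling. Of 6 cardiomyocyte genes, 4 were called higher in the vector comparison and 5 lower in the diet comparison, with medians of 0.62 and -0.72. Over 20 alternatives the number of cardiomyocyte genes called ran from 0 to 6 in each comparison. Of 4 adipocyte genes, Lep was at 0 in 9 of 9 libraries and only Cfd, the secreted protease adipsin, passed the filter. Cfd averaged 1.503 ± 1.12 CPM in HFD AAV-BCKDK, 0.151 ± 0.132 CPM in HFD AAV-CON, against 0.0877 ± 0.0818 CPM in ND AAV-CON (SD, n = 3 each). It rose by 3.40 in the vector comparison (SE 1.10, edgeR adjusted p = 0.036) and was at 0.65 in the diet comparison (SE 1.33, edgeR adjusted p = 0.72). In 7 of 20 alternatives no adipocyte gene was called in the vector comparison. The 4 genes together had sums of at most 3.68, 0.431 and 0.405 CPM in HFD AAV-BCKDK, HFD AAV-CON and ND AAV-CON.

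Of 5 other class II genes listed, 4 were tested: 4 of 4 fell in the vector comparison and 2 of 4 rose in the diet comparison. The gene not tested, H2-Ea-ps, was not among the annotated genes. The call of H2-Eb2 in the vector comparison (-3.56, SE 1.22, edgeR adjusted p = 0.0436) rests on few counts and was lost in 8 of 19 alternatives. H2-Eb2 had 0, 10 and 0 counts in HFD AAV-BCKDK libraries, against 123, 36 and 39 in HFD AAV-CON libraries and 14, 6 and 0 in ND AAV-CON libraries. H2-DMb2, the second beta chain of H2-DM, averaged 0.475 ± 0.23 CPM in HFD AAV-BCKDK, 7.72 ± 1.8 CPM in HFD AAV-CON, against 1.11 ± 0.905 CPM in ND AAV-CON (SD, n = 3 each). It fell by 4.05 (SE 0.56, edgeR adjusted p = 0.0016) in the vector comparison and rose by 2.79 (SE 0.51, edgeR adjusted p = 0.0029) in the diet comparison. H2-Ob, the beta chain of the H2-DM inhibitor H2-O, fell by 1.76 (SE 0.33, edgeR adjusted p = 0.0046) and rose by 2.22 (SE 0.33, edgeR adjusted p = 0.0013). H2-Oa, its alpha chain, had only 3, 3 and 6 counts in HFD AAV-BCKDK libraries, against 155, 42 and 98 in HFD AAV-CON libraries and 14, 0 and 34 in ND AAV-CON libraries. Its diet estimate of 2.25 (SE 0.82) missed the threshold at an edgeR adjusted p of 0.0502 and passed it in 10 of 20 alternatives.

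Among 6 tested genes for proteases that cut the invariant chain or antigens, 4 fell and 0 rose in the vector comparison. In the diet comparison 3 rose and 1 fell. Ifi30, also listed, was not among the annotated genes. Ctss, the cathepsin that trims the invariant chain in antigen-presenting cells, had 26.7, 44.5 and 42.9 CPM in HFD AAV-BCKDK libraries, 472, 278 and 380.3 CPM in HFD AAV-CON libraries and 37.6, 26.3 and 77.5 CPM in ND AAV-CON libraries. Its groups overlapped only between HFD AAV-BCKDK and ND AAV-CON. Ctss fell by 3.31 (SE 0.40, edgeR adjusted p = 0.0013) and rose by 3.00 (SE 0.40, edgeR adjusted p = 8.7e-04), changes of the size seen for the class II genes. Lgmn, the asparaginyl endopeptidase, fell by 1.26 and rose by 1.04 (SE 0.14 each), and Ctsb fell by 0.68 and rose by 0.65 (SE 0.10 each). Ctsl, the cathepsin that does the work of Ctss in thymic epithelium, was at -0.35 in the diet comparison (SE 0.11, edgeR adjusted p = 0.026), but at 0.051 under total-count scaling.

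Of 3 genes that set how long class II stays at the surface, March1 and Cd83 changed. March1, a ubiquitin ligase that sends class II to lysosomes, fell by 2.69 (SE 0.53) in the vector comparison and rose by 2.39 (SE 0.51) in the diet comparison. Cd83, which counters March1, fell by 2.02 (SE 0.18) and rose by 1.35 (SE 0.17). March8, a related ligase, passed no test, at 0.19 and -0.13, with both signs turned under total-count scaling.

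The genes of factors that occupy the X and Y boxes had small median changes. The 7 listed were the RFX subunits Rfx5, Rfxap and Rfxank, the NF-Y subunits Nfya, Nfyb and Nfyc, and Creb1. In the vector comparison 1 fell and 0 rose, and in the diet comparison 1 rose and 1 fell, with medians of -0.08 and 0.05. Over all genes tested, 20.9% were called lower in the vector comparison, and 22.7% higher and 20.6% lower in the diet comparison. Over 20 alternatives the number called ran from 1 to 5 in the vector comparison and from 2 to 4 in the diet comparison. Nfya had 18.6, 18.3 and 18.6 CPM in HFD AAV-BCKDK libraries, against 28.8, 25.6 and 27.99 CPM in HFD AAV-CON libraries and 16.3, 15.4 and 18.2 CPM in ND AAV-CON libraries. It fell by 0.57 (SE 0.09, edgeR adjusted p = 0.0022) and rose by 0.73 (SE 0.09, edgeR adjusted p = 6.6e-04). Rfxank, in a comparison of HFD AAV-BCKDK with ND AAV-CON where 1.27% of genes were called lower, passed the test against ND AAV-CON under HFD with either vector. It was at 14.8, 15.7 and 14.4 CPM in HFD AAV-BCKDK and 17.1, 15.0 and 15.4 CPM in HFD AAV-CON, against 20.4, 19.9 and 21.1 CPM in ND AAV-CON. Its estimates were -0.45 (SE 0.08, edgeR adjusted p = 0.029) and -0.37 (SE 0.08, edgeR adjusted p = 0.0074) against ND AAV-CON, and under total-count scaling the second became 0.042 and the first, at -0.51, no longer passed. Leaving out any of 7 of the 9 libraries also took the call from the first of these. Rfx5, the DNA-binding subunit, was at -0.41 (SE 0.19) and 0.28 (SE 0.18) and passed neither test.

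Of 12 genes known to act upstream of Ciita, 9 fell in the vector comparison and 10 rose in the diet comparison, with medians of -1.13 and 1.48. The shares over all genes tested were 20.9% called lower and 22.7% called higher. Spi1, the myeloid factor PU.1, averaged 6.42 ± 1.61 CPM in HFD AAV-BCKDK, 30.03 ± 9.85 CPM in HFD AAV-CON, against 5.19 ± 0.93 CPM in ND AAV-CON (SD, n = 3 each), and fell by 2.23 and rose by 2.53 (SE 0.27 each). Irf1, the interferon-induced factor that acts on the inducible Ciita promoter, had 34.5, 30.7 and 36.5 CPM in HFD AAV-BCKDK libraries, against 72.6, 60.9 and 66.4 CPM in HFD AAV-CON libraries and 26.6, 24.5 and 37.2 CPM in ND AAV-CON libraries. It fell by 0.97 and rose by 1.18 (SE 0.15 each). Socs1, which dampens interferon gamma signalling, fell by 2.18 (SE 0.27) and rose by 1.78 (SE 0.26). Prdm1, a repressor of Ciita in plasma cells, moved in the same direction as Ciita and not against it, falling by 1.29 (SE 0.31) and rising by 2.13 (SE 0.32). Ifng, the cytokine itself, had 0, 2 and 2 counts in HFD AAV-BCKDK libraries, 181, 54 and 93 counts in HFD AAV-CON libraries and 0, 0 and 32 counts in ND AAV-CON libraries, with edgeR adjusted p of 0.015 in the vector comparison and 0.0493 in the diet comparison.

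**Figure D4:**
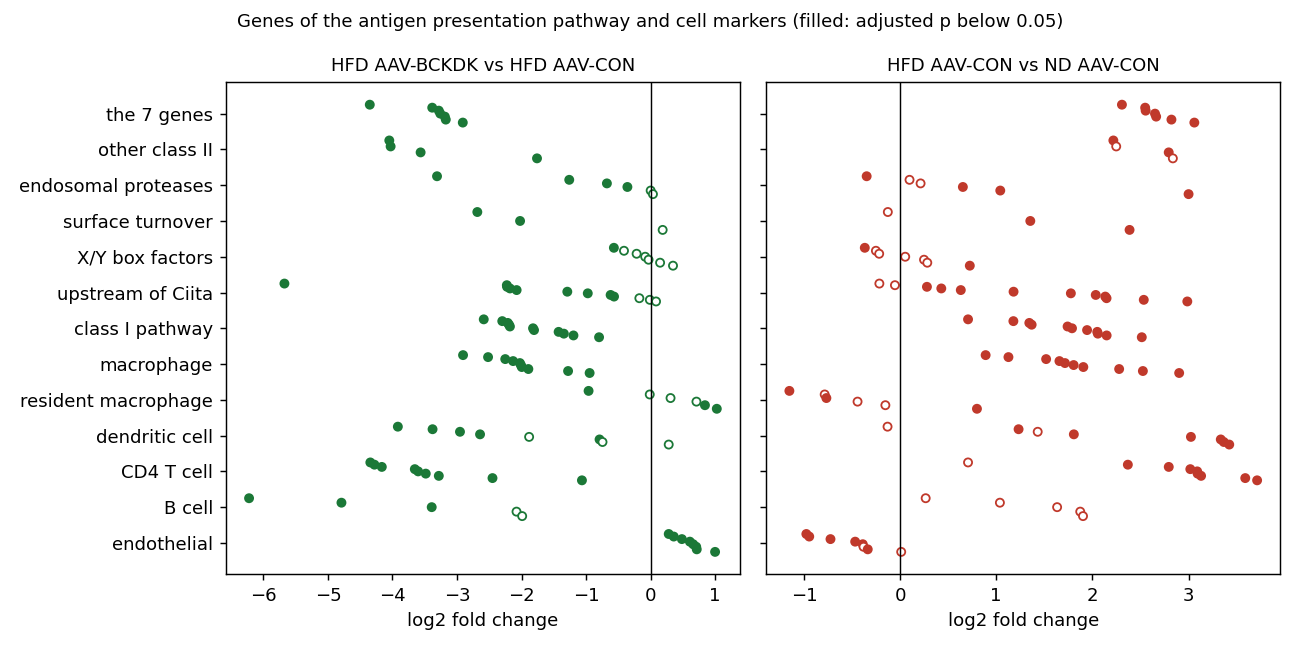
Log2 fold change (x axis) of each tested gene of the listed groups, 1 row of points per list, in the vector comparison (left) and the diet comparison (right); filled points have an edgeR adjusted p below 0.05. The points of the 7 genes lie at -2.91 or lower on the left and at 2.31 or higher on the right, while those of the X and Y box factors lie around 0, with medians of -0.08 and 0.05.

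Of 8 interferon gamma target genes, 8 fell in the vector comparison and 8 rose in the diet comparison, with medians of -2.89 and 2.55. The class I presentation list fell for 11 of 11 and rose for 11 of 11, with smaller medians of -1.82 and 1.79. A list of 6 co-signalling molecules fell for 6 of 6 and rose for 6 of 6. It holds Cd80 and Cd86, ligands that give T cells the second signal beside class II, but also the receptor Cd40 and the inhibitory PD-1 ligands Cd274 and Pdcd1lg2. Between HFD AAV-BCKDK and ND AAV-CON the medians of these 3 lists were -0.30, -0.08 and -0.26.

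Of the 10 protein-coding genes between or next to the members on chromosome 17, 9 fell in the vector comparison and 7 rose in the diet comparison. Over all genes tested, 20.9% were called lower in the vector comparison and 22.7% higher in the diet comparison. Apart from Brd2 and Btnl2, the 10 were already counted above, among the other class II genes or in the class I list. The class I supply genes Psmb9, Tap1, Psmb8 and Tap2, which lie between H2-DMb1 and H2-Ab1, were at -2.19, -2.30, -2.18 and -1.34 in the vector comparison and 2.05, 2.15, 1.94 and 1.37 in the diet comparison; their difference from the members around them was not tested. Brd2, a bromodomain gene on the opposite strand that overlaps the start of H2-DMa, fell by 0.36 and rose by 0.46 (SE 0.09 each). Without knowing whether strand was used, reads in that overlap cannot be told apart. Btnl2, beyond H2-Eb2, averaged 0.145, 0.189 and 0.359 CPM in HFD AAV-BCKDK, HFD AAV-CON and ND AAV-CON and passed no test.

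**Figure D5:**
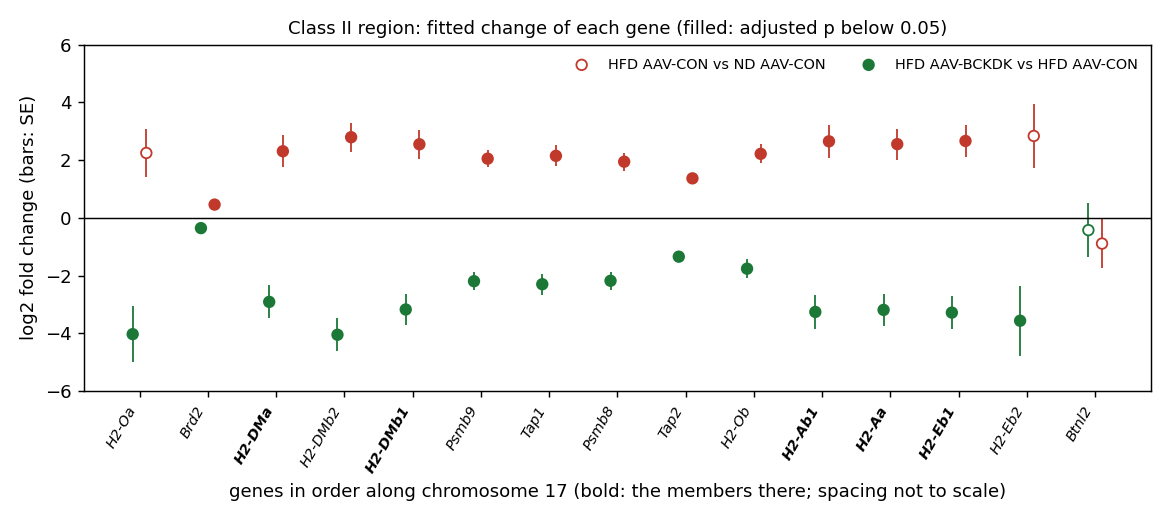
Log2 fold change with its SE (y axis) of each gene in order along the class II region of chromosome 17 (x axis, not to scale), for the vector comparison and the diet comparison; filled points have an edgeR adjusted p below 0.05 and the members' names are bold. H2-DMa, H2-DMb1, H2-Ab1, H2-Aa and H2-Eb1 lie at 2.31 log2 units or beyond in both comparisons, and Brd2, at -0.36 and 0.46, lies near 0.

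Beside Ciita on chromosome 16, Dexi overlaps the end of Ciita in part on the opposite strand, and the sources used here do not say whether the counting used strand. Dexi averaged 24.3, 24.1 and 22.7 CPM in HFD AAV-BCKDK, HFD AAV-CON and ND AAV-CON, with estimates of 0.01 and 0.09 (SE 0.09 each), and passed no test. Clec16a, beyond Dexi on the same side of Ciita, was at -0.01 in the vector comparison. In the diet comparison Clec16a rose by 0.41 (SE 0.08, edgeR adjusted p = 0.0051). It was also called higher in HFD AAV-BCKDK than in ND AAV-CON, at 0.40 (SE 0.09, edgeR adjusted p = 0.047), with no overlap. On the other side of Ciita, Tvp23a fell by 1.71 (SE 0.40) and rose by 1.08 (SE 0.38), and Nubp1 passed neither test.

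Beside Cd74 on chromosome 18, Tcof1 fell by 0.49 and rose by 0.34 (SE 0.08 each). The ribosomal protein gene Rps14 was at 0.35 (SE 0.12, edgeR adjusted p = 0.0395) and -0.29 (SE 0.12, edgeR adjusted p = 0.073). Ndst1 and Arsi passed no test in either comparison.

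Genes were also ranked by how closely their log2 CPM followed the mean of the 6 class II genes over the 9 libraries, as the root-mean-square (RMS) difference after centring, among 12250 genes with average log2 CPM of at least 0. The members' own values ran from 0.0493 for H2-Aa to 0.154 for H2-DMa, and Ciita was at 0.490. Each of the 6 class II genes is part of the mean it was set against, which favours small values. Ciita and the genes ranked are not part of it. The closest of the genes ranked was Irgm1, an interferon-inducible GTPase, at 0.141, nearer than H2-DMa. Tox, a nuclear factor of T cells, followed at 0.170, Slfn1 at 0.175, and Cd52, a lymphocyte surface peptide, at 0.187. Rac2 was at 0.217, Rasgrp1 at 0.218, Acap1 at 0.232 and Coro1a, an actin-binding protein of white cells, at 0.240. Mpeg1, the pore-forming protein of macrophages, was at 0.242, and Ptprc closed the 10 at 0.244. Nearest to Ciita were Mmp25 at 0.258, Cxcl9, a chemokine induced by interferon gamma, at 0.313, Ly9 at 0.381, B4galnt1 at 0.385 and Rac2 at 0.388. These values are descriptions over 9 libraries that share group differences and depth. Irgm1 averaged 39.8 ± 16.01 CPM in HFD AAV-BCKDK, 334 ± 82.2 CPM in HFD AAV-CON, against 52.9 ± 32.8 CPM in ND AAV-CON (SD, n = 3 each).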

How the data were processed

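The authors deposited raw read counts per gene for 9 libraries, with no normalization. Reads were handled with HISAT2 2.0.5 and build mm10, per the submitters' processing notes. Which tool counted them, over which annotation, and whether by strand, the sources used here do not say. The 4142 unnamed loci of the 26178 rows, 1.02% to 6.01% of a library's counts, were left out. Genes were filtered with filterByExpr, scaled by TMM factors and tested in 1 edgeR 4.0.16 quasi-likelihood fit of all 9 libraries (R 4.3.3), with Benjamini-Hochberg adjustment over 14160 genes and a threshold of 0.05. The fit was tested on simulated data. DESeq2 1.42.0, limma 3.58.1 (voom), other scalings, filters and each library left out were alternatives. Log2 CPM for the ranking used a prior count of 2, and RPKM used GENCODE M21 exon lengths. Symbols turned into dates by a spreadsheet (March1, March8) were restored from their identifiers. Intervals and p-values cover only the 3 replicates per group.

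The 7 genes and all gene lists were chosen with earlier results of these data known. Named genes were the 7 genes, up to 4 genes of each pathway list with the smallest p in the diet comparison, the 10 genes most like the class II mean, the 5 most like Ciita, and the chromosomal neighbours. H2-Oa, March8 and Ctsl met the rule for pathway lists, but were printed after their values were seen. Others named (Ifng, Rfx5, Cfd, Cd4, Cd8a, Zbtb46, Lyz2) were chosen after their values were seen.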

Additional observations from a re-analysis of the deposited data

How the results depend on the processing

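The counts of members called were the same in 20 of 20 alternatives, 9 of which left out a library: 7 of 7 in the vector comparison (estimates from -4.85 to -2.53), 7 of 7 in the diet comparison (1.95 to 3.73) and 0 of 7 in HFD AAV-BCKDK against ND AAV-CON, where 5 of 140 estimates changed sign, each without ND AAV-CON replicate 3. In that comparison, with 1 library left out, Cd74 ran from -0.92 to 0.13, H2-Aa from -0.999 to 0.069, H2-Ab1 from -0.99 to 0.096, H2-Eb1 from -1.01 to 0.15, H2-DMa from -0.96 to 0.17, H2-DMb1 from -0.97 to -0.019 and Ciita from -1.71 to -0.62. Scaling by total counts moved the median of all genes to -0.47 in the vector comparison and 0.40 in the diet comparison, where 398 genes were called higher and 6867 lower in the vector comparison (2444 and 2966 under TMM), and 5986 higher and 934 lower in the diet comparison (3215 and 2919 under TMM). Under it the signs turned for Ctsl (-0.42 and 0.051), March8 (-0.28 and 0.29) and Nfyc (-0.29 and 0.13) in the vector and diet comparisons, and for Rfxank (0.042) in the diet comparison. Without HFD AAV-BCKDK replicate 1, Ctsl was at -0.059 in the vector comparison.

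The ratio of class II genes to macrophage markers moved to -0.25 in the vector comparison and 0.21 in the diet comparison with Ptprc below the line, and to -2.21 in the vector comparison with dendritic cell markers. Without Zbtb46 among these it was 0.31 in the diet comparison. The cause was not tested. Leaving out 1 library each gave -1.59 to -1.07 in the vector comparison, 0.78 to 1.60 in the diet comparison and -0.61 to 0.22 in HFD AAV-BCKDK against ND AAV-CON. Without HFD AAV-CON replicate 3, 2847 genes were called in the vector comparison and 4050 in the diet comparison, against 5410 and 6134 with it. In HFD AAV-BCKDK against ND AAV-CON, 347 genes were called, 877 with DESeq2 and 43 to 744 with a library left out.

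The labels' replicate numbers were not taken to pair the samples. Same-numbered deviations from the group mean correlated at -0.22, -0.10 and 0.10 in the vector comparison. The values were 0.02, 0.19 and 0.01 in the diet comparison and -0.013, -0.16 and 0.19 in HFD AAV-BCKDK against ND AAV-CON. Deviations of 3 libraries from their own mean are tied to one another, so these values cannot exclude pairing. With the replicate block, 7, 7 and 0 members were called, among 4922, 5614 and 107 genes. Over the pathway genes and the genes ranked by likeness that were rerun, 1288 values kept direction and call, 21 gained it, 21 lost it and 8 turned. The neighbours outside class II, Ifng, Rfx5, Cfd, Cd4, Cd8a, Zbtb46 and Lyz2 were not rerun one by one. Of the counts of called genes per list, 1105 were within 1.5 times the main count and 95 were not. In the vector comparison they ran from 1 to 8 of 8 endothelial, 3 to 5 of 6 fibroblast, 1 to 5 of 5 B cell, 1 to 4 of 5 monocyte, 2 to 5 of 5 CD8 T and NK and 1 to 5 of 6 resident macrophage markers, and from 1 to 5 of 7 box factors. In the diet comparison they ran from 3 to 7 for endothelial markers, 0 to 3 for B cells and 2 to 5 for monocytes. There CD8 T and NK cells gave 0 to 4 and resident macrophages 2 to 5. Box factors gave 2 to 4 in the diet comparison, and the other class II genes 2 to 4. Low counts limit H2-Oa, H2-Eb2, Ifng and the B cell markers most.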
